A study of Mus musculus with 12 samples.

Results

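Neurofilaments and intermediate filaments of the sensory ganglion are described here from 8 genes, Nefl, Nefm, Nefh, Ina, Prph, Vim, Nes and Sncg. They were chosen by name, with earlier results of these data known. All 8 were found among the 44345 gene names of the count table, and all 8 were among the 16238 genes that passed the filter on low counts. RNA from whole sciatic dorsal root ganglia (DRG, L4 to L6), which hold the cell bodies of the sensory neurons of the sciatic nerve, was sequenced in 12 samples of C57BL/6 mice aged 5-8 weeks, with 3 samples in each of 4 groups. Mice lived for 10 days in standard housing (SH) or in environmental enrichment (EE), then had sciatic nerve axotomy (SNA, the complete cutting of the nerve) or sham surgery in which the nerve was only exposed, and their ganglia were dissected 24 h after surgery. The control group is SH Sham, SH SNA had the injury alone, EE Sham the enrichment alone, and EE + SNA had both. For each sample the ganglia from both sides of 2 mice were pooled, which makes 6 mice per group, and whether the nerve was cut on each side is not given in the sources used here. The study took EE Sham from an earlier dataset, so that a difference between datasets cannot be told apart from the effect of EE without injury, nor from the effect of SNA in EE. The same limit touches every comparison that uses EE Sham, including housing, the interaction and SNA against Sham over both housings. EE + SNA against SH SNA does not use EE Sham or SH Sham. The study compared each condition with its respective SH Sham, and the dataset of the SH Sham samples is not given in the sources used here. Whether the limit also touches SH SNA or EE + SNA against SH Sham is thus not known.

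Intermediate filaments are ropes of coiled-coil proteins that give a cell its tensile strength. In myelinated axons the light, medium and heavy neurofilament subunits (Nefl, Nefm and Nefh) co-assemble, and they can take in alpha-internexin (Ina) or peripherin (Prph). The abundance of neurofilaments sets axon calibre. The large fibre neurons of the DRG are classically recognised by the heavy subunit and many small neurons by peripherin. Vimentin (Vim) and nestin (Nes) are the filaments of glia, fibroblasts, vessels and immature cells, and gamma-synuclein (Sncg) is not a filament protein but a small soluble protein that is abundant in peripheral sensory neurons.

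The reads that the authors counted on genes numbered between 11343579 and 22871460 per sample, with the highest total in EE + SNA replicate 2. The injury gene Atf3, a transcription factor switched on in axotomised neurons, was higher after SNA by a log2 fold change of 2.12 in SH and 1.71 in EE (adjusted P = 7.4e-08 and 4.2e-06). All 11 markers of neurons in general were tested, and their summed level was 6446 to 7211 CPM (counts divided by the TMM-scaled library total and multiplied by 1000000) over the 12 samples. Of the libraries, SH SNA replicate 2 stood apart in skeletal muscle genes, with a sum of 883 CPM over 6 genes where the other 11 samples had 3.05 to 151 CPM. Another, EE + SNA replicate 3, was highest in neutrophil genes (sum of 583 CPM, 57.0 to 253 elsewhere), in genes of dividing cells (37.1 CPM, 4.68 to 17.0 elsewhere), in red blood cell genes (595 CPM, 111 to 516 elsewhere) and in Schwann cell genes, and it also had the highest Vim of all samples and the highest Nefh of its group. The part of these cells in its values was not tested. In the adjusted P values given here, edgeR's quasi-likelihood test was corrected by Benjamini-Hochberg over the 16238 genes tested.

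Per length of gene, the 8 genes differed widely in level. On the authors' FPKM scale (reads divided by gene length and by library total) the order by mean level over the 12 samples was Sncg at 2532 FPKM, Nefl at 1339, Nefm at 889, Prph at 700, Nefh at 547, Vim at 245, Ina at 13.7 and Nes at 5.70. Sncg held place 11 and Nefl place 19 among the 45904 lines of the FPKM table. Prph, with 625 to 748 FPKM, and Nefh, with 456 to 665, were the only neighbours in this order whose ranges over the 12 samples overlapped, and within each group every Prph value was above every Nefh value. Vim stood at 121 when CPM were divided by the kilobases of its exons in GENCODE, with its place in the order unchanged. Alpha-internexin was low beside its partners, at a ratio of 0.00984 to Nefl on the FPKM scale in SH Sham (SD 0.00052, n = 3), where Nefm stood at 0.671 and Nefh at 0.420. The 3 neurofilament genes alone took 1.05% to 1.40% of the reads counted on genes in a sample, and all 8 took 1.47% to 1.82%.

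**Figure D1:**
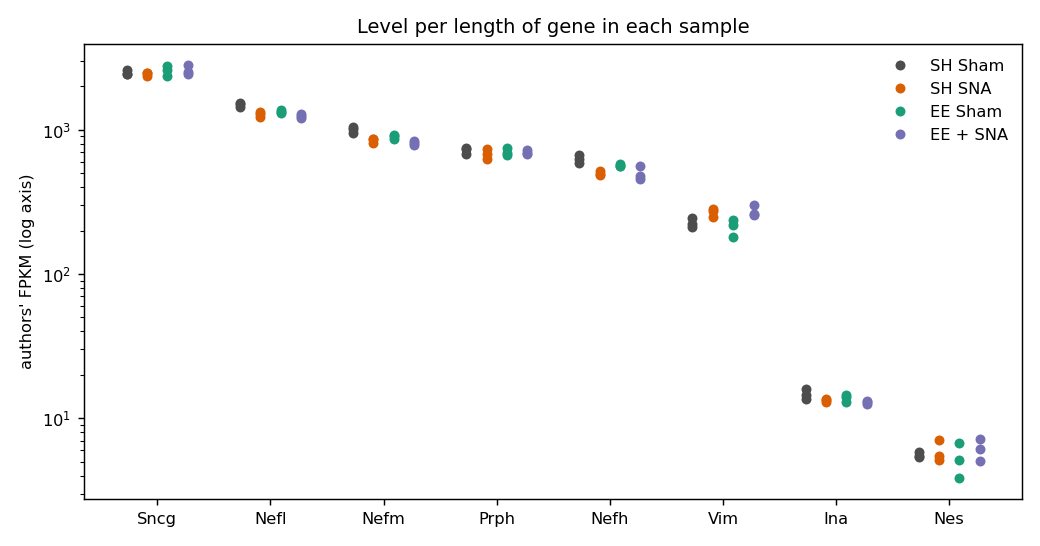
Level per length of the 8 genes in each of the 12 samples, on the authors' FPKM scale (vertical log axis), with genes in order of their mean and 1 point per sample coloured by group. Sncg at 2532 FPKM and Nefl at 1339 lead, and Ina at 13.7 and Nes at 5.70 lie far below the other 6.

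The genes lie apart in the genome except for the light and medium subunits. On GRCm38, Nefl (ENSMUSG00000022055, chromosome 14, 68083863 to 68089095, plus strand) and Nefm (ENSMUSG00000022054, chromosome 14, 68082590 to 68124846, minus strand) face each other, and in the GENCODE annotation 1108 of the 3380 exon bases of Nefl are also exon of Nefm on the opposite strand. The strand setting of the read counting is not given in the sources used here, so that reads in this stretch cannot be told apart by gene. Ina (chromosome 19, 47014698 to 47025327) shares 456 exon bases with Nt5c2 in the same way. Nefh (chromosome 11, 4938754 to 4948064), Prph (chromosome 15, 99055174 to 99058978), Vim (chromosome 2, 13573927 to 13582826), Nes (chromosome 3, 87971078 to 87980451) and Sncg (chromosome 14, 34370274 to 34374789) share no exon base with another gene.

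Promoter sequence before the RefSeq gene start (GRCm38.p6) was at hand for Vim, Prph, Ina, Nes and Sncg. The 250 bases before the RefSeq start of Vim, the gene of the 8 that was higher after SNA, and of Prph, a neuronal filament gene that did not pass the test, are shown so that both can be compared. Both lie on the plus strand, Vim at chr2:13574061-13574310 and Prph at chr15:99054924-99055173, and the GENCODE model of Vim given above starts further upstream, so that this window lies inside it, whereas the window of Prph ends just before its GENCODE model. Capitals mark TATAAA, and CCAAT on either strand (ATTGG when read on the other).
Vim: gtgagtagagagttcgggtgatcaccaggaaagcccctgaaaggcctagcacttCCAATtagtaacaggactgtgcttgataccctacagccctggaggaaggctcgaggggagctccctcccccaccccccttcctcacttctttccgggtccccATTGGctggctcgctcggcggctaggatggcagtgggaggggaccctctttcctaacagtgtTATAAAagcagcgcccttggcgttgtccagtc
Prph: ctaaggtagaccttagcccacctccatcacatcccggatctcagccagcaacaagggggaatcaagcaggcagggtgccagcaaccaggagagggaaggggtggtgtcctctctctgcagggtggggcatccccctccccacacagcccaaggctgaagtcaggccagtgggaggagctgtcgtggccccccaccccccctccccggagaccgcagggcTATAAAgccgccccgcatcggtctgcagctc
Vim carries TATAAA starting 32 bases before its start and CCAAT matches at 196 and 94 bases before it, and Prph carries TATAAA starting 31 bases before its start. Of 32851 promoter windows of this length, 12.4% hold TATAAA and 33.8% hold CCAAT on either strand. The AP-1 motif TGANTCA (6.75% of all windows), the cyclic AMP response element TGACGTCA (1.55%) and the STAT motif TTCNNNGAA (7.02%), searched on both strands, had no match in the window of any of the 5 genes, which says only that these letters are not in these 250 bases.

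Across the 8 genes, the neurofilament subunits were lower and vimentin was higher after SNA, and the other 4 did not pass the adjusted test in any comparison. After SNA in SH, 2 of 8 passed (Nefh lower, Vim higher), where 11.2% of all genes tested did. At an unadjusted P of 0.05, the threshold of the study, 4 passed against 25.2% of all genes, and in 5 genes no value of SH SNA overlapped with SH Sham against 29.4%. EE + SNA against EE Sham gave 0 of 8 by edgeR's quasi-likelihood test after adjustment (4.83% of all genes), 3 of 8 unadjusted (20.6%), and 3 of 8 without overlap (25.8%). In that comparison DESeq2 called 1 of the 8, Vim, and limma on the FPKM called 0. With EE + SNA against SH Sham, 4 of 8 passed (Nefl, Nefm, Nefh and Vim, against 12.5% of all genes), 5 passed unadjusted (27.2%) and 5 did not overlap (31.8%). This comparison, SH SNA against SH Sham and EE Sham against SH Sham share the 3 SH Sham samples and are not independent of each other.

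Taken over both housings in one additive model of all 12 samples, SNA against Sham called 4 of the 8 genes after adjustment, beside 22.4% of all genes tested. Of these, 1 was higher (11.4% of all genes were) and 3 were lower (11% of all genes were). Unadjusted, 5 of 8 passed against 34.7%. The median log2 fold change of the 8 genes was −0.073, beside 0.0071 over all genes tested. Only Vim had all 6 SNA samples on one side of all 6 Sham samples, as 11.1% of all genes did.

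**Figure D2:**
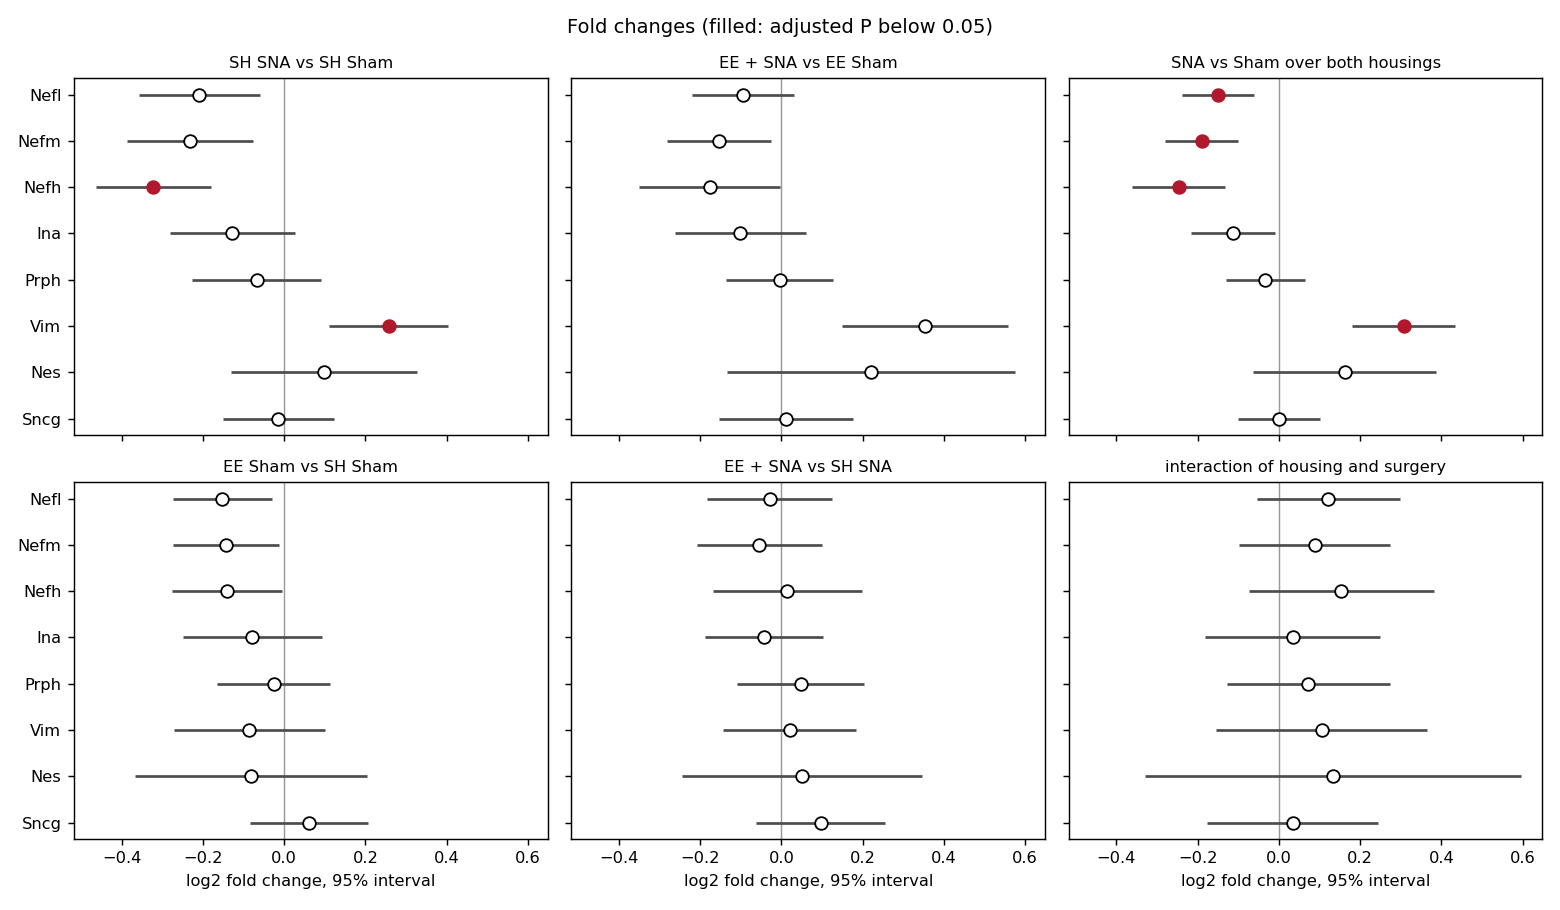
Log2 fold changes of the 8 genes (points) with their 95% intervals (lines) in 6 comparisons, from edgeR's quasi-likelihood fits, with filled points where the adjusted P is below 0.05. Over both housings the 3 neurofilament genes lie between −0.25 and −0.15 and Vim at 0.31, whereas no point is filled for the comparisons of housing or for the interaction.

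The heavy subunit Nefh, which is the most phosphorylated of the 3 and marks large myelinated neurons, had 2377, 2480 and 2648 CPM in SH Sham and 1940, 1985 and 2070 CPM in SH SNA. All 3 injured samples were thus below all 3 controls. The log2 fold change was −0.32 (standard error 0.065, adjusted P = 0.00726), and the level fell by 20.0%. In EE Sham the values were 2366, 2208 and 2240 CPM and in EE + SNA 1945, 1824 and 2288 CPM. Here the groups overlapped, because EE + SNA replicate 3 lay within the range of EE Sham while the other 2 lay below it, and the log2 fold change was −0.18 (standard error 0.079, adjusted P = 0.231). Without EE + SNA replicate 3 it was −0.27 (adjusted P = 0.0563), and without EE + SNA replicate 2 it was −0.12. Over both housings Nefh fell by 15.7% (log2 fold change −0.25, standard error 0.055, adjusted P = 0.00327), and it passed with any 1 of the 12 samples left out. RNA of a whole ganglion was measured, so that fewer cells of a type and less RNA per cell cannot be told apart for any of these genes.

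The medium subunit Nefm had 5492, 5816 and 6054 CPM in SH Sham against 4687, 5069 and 5003 CPM in SH SNA, and no value overlapped. Its log2 fold change was −0.23 (standard error 0.071, unadjusted P = 0.00662, adjusted P = 0.0560), just outside the adjusted threshold. In EE Sham it had 5422, 5265 and 5044 CPM against 4744, 4547 and 4924 CPM in EE + SNA, again with every injured sample below every control (log2 fold change −0.15, standard error 0.059, adjusted P = 0.166). The light subunit Nefl, the core of the filament, had 4923, 5059 and 5144 CPM in SH Sham against 4335, 4579 and 4158 CPM in SH SNA. Those groups did not overlap either, with a log2 fold change of −0.21 (standard error 0.068, unadjusted P = 0.00993, adjusted P = 0.0721). In EE Sham it had 4630, 4552 and 4442 CPM against 4308, 4079 and 4427 CPM in EE + SNA, where the highest injured sample lay just under the lowest control (log2 fold change −0.095, standard error 0.058, adjusted P = 0.387).

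Over both housings Nefm fell by 12.4% (log2 fold change −0.19, standard error 0.043, adjusted P = 0.00379) and Nefl fell by 9.85% (log2 fold change −0.15, standard error 0.042, adjusted P = 0.0164). Nefm passed with any 1 sample left out, whereas Nefl did not pass without SH SNA replicate 3 (adjusted P = 0.0508). Within SH, both passed without SH SNA replicate 2, the library with the muscle RNA, with adjusted P of 0.0163 for Nefl and 0.0209 for Nefm. Without any other of the 6 samples neither passed, and the adjusted P reached 0.251 for Nefl and 0.215 for Nefm. With no sample left out, Nefl passed in 4 and Nefm in 7 of the 8 other ways of processing. Against SH Sham, EE + SNA had log2 fold changes of −0.24 for Nefl (adjusted P = 0.0166), −0.29 for Nefm (adjusted P = 0.00824) and −0.31 for Nefh (adjusted P = 0.0233), each with all 3 samples below all 3 controls. Nefm passed there with any 1 of the 6 samples left out, whereas Nefl and Nefh each lost their call without SH Sham replicate 2 or 3 and without EE + SNA replicate 1 or 2, with adjusted P of 0.0505 to 0.0684 for Nefl and 0.0632 to 0.0888 for Nefh.

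**Figure D3:**
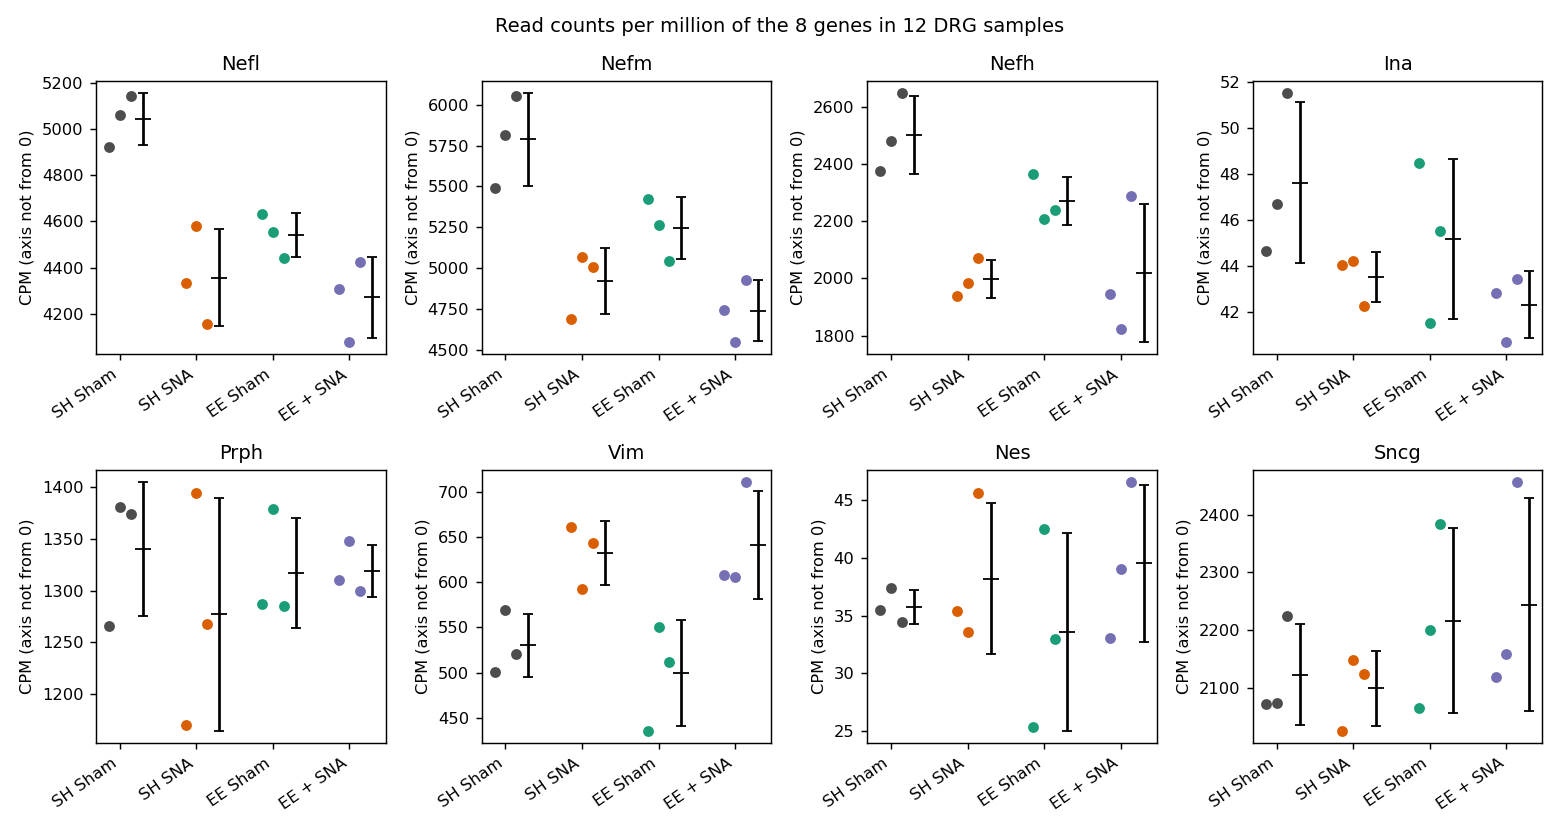
CPM of each of the 8 genes in the 12 samples (points, 3 per group), with the group mean and SD (n = 3) as a bar to the right of the points and vertical axes that do not start at 0. Nefl, Nefm and Nefh are highest in the 3 SH Sham samples, and the 6 SNA samples of Vim, from 592 to 711 CPM, lie above all 6 Sham samples, from 436 to 569 CPM.

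Among sham-operated mice, the same 3 subunits had lower values in EE than in SH, by an amount that did not survive adjustment. All 3 EE Sham samples lay below all 3 SH Sham samples in each of Nefl, Nefm and Nefh, 3 of the 8 genes, where 7.61% of all genes had groups without overlap. The log2 fold changes were −0.15 for Nefl (unadjusted P = 0.0179), −0.14 for Nefm (unadjusted P = 0.0332) and −0.14 for Nefh (unadjusted P = 0.0421), so that 3 of 8 passed the unadjusted edgeR test and 2.97% of all genes did. After adjustment 0 of 8 passed (0.00616% of all genes did), with an adjusted P of 0.9999 for each, and DESeq2 and limma called 0 as well. In injured ganglia the housing groups overlapped in all 8 genes (10.4% of all genes did not), 0 of 8 passed edgeR's test adjusted (0% of all genes) or unadjusted (4.1%), and DESeq2 and limma called 0. The log2 fold change of EE + SNA against SH SNA was −0.029 for Nefl (95% interval −0.18 to 0.13), −0.054 for Nefm (−0.21 to 0.099) and 0.014 for Nefh (−0.17 to 0.20).

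Housing over both surgeries called 0 of 8 by edgeR after adjustment (0% of all genes), as did DESeq2 and limma, and 2 of 8 unadjusted (4.69%), which were Nefl at a log2 fold change of −0.090 (unadjusted P = 0.0478) and Nefm at −0.098 (unadjusted P = 0.0352). The difference between the effect of SNA in EE and its effect in SH was tested as an interaction, and 0 of 8 genes passed adjusted (0% of all genes) or unadjusted (2.61%), with 0 called by DESeq2 and limma. For Nefh this difference was 0.15 on the log2 scale with a 95% interval of −0.074 to 0.38, for Nefl 0.12 (−0.055 to 0.30) and for Nefm 0.088 (−0.098 to 0.27). The value for Nefh went down to 0.051 without EE + SNA replicate 3 and up to 0.22 without EE + SNA replicate 2. These intervals span 0 but are wide beside the effect of SNA itself, so that a smaller drop in EE was neither shown nor bounded closely.

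The ratios of the RNA of the subunits were compared per length. Protein was not measured, and the exon stretch that Nefl and Nefm share bears on every ratio with either of them. On the FPKM scale Nefh stood to Nefm at 0.626 ± 0.0079 (SD, n = 3) in SH Sham and 0.588 ± 0.019 in SH SNA, where the highest injured sample had 0.599 and the lowest control 0.617. In EE the ratio was 0.627 ± 0.018 in EE Sham and 0.616 ± 0.050 in EE + SNA, and the groups overlapped. Nefm to Nefl overlapped between Sham and SNA in SH, with 0.671 ± 0.018 and 0.661 ± 0.038, but not in EE, with 0.675 ± 0.010 and 0.649 ± 0.0043.

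Ina and Prph, the other neuronal filament genes, did not pass the adjusted test in any comparison. Ina had 44.6, 46.7 and 51.5 CPM in SH Sham and 44.0, 44.2 and 42.3 CPM in SH SNA. The groups were only just apart, and the log2 fold change was −0.13 (standard error 0.071, adjusted P = 0.292). In EE Sham it had 48.5, 41.5 and 45.5 CPM and in EE + SNA 42.8, 40.7 and 43.4 CPM, which overlapped. Over both housings its log2 fold change was −0.11 (standard error 0.049, unadjusted P = 0.0349, adjusted P = 0.111), and it passed only without EE Sham replicate 2 (adjusted P = 0.0456).

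Peripherin had 1266, 1381 and 1375 CPM in SH Sham, 1170, 1394 and 1268 CPM in SH SNA, 1288, 1379 and 1285 CPM in EE Sham, and 1310, 1348 and 1300 CPM in EE + SNA. All 4 groups overlapped. Over both housings the log2 fold change was −0.034 with a 95% interval of −0.13 to 0.063 (adjusted P = 0.650), an interval that leaves out a drop of the size seen for Nefh. The ratio of Prph to Nefl on the FPKM scale was 0.482 ± 0.015 (SD, n = 3) in SH Sham and 0.531 ± 0.036 in SH SNA, with 1 SH SNA sample at 0.489 inside the control range, which reached 0.495.

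Vimentin rose after SNA. It had 500, 569 and 521 CPM in SH Sham and 662, 592 and 643 CPM in SH SNA, so that every injured sample was above every control. The log2 fold change was 0.26 (standard error 0.067, adjusted P = 0.0272), a rise of 19.5%. This call was lost without SH Sham replicate 1 or 3 and without SH SNA replicate 1 or 3, with adjusted P between 0.0806 and 0.103. It was also lost with all 12 samples in one fit (adjusted P = 0.0733) and with limma on the FPKM (adjusted P = 0.0704). In EE Sham it had 436, 551 and 511 CPM and in EE + SNA 608, 605 and 711 CPM, again without overlap (log2 fold change 0.35, standard error 0.093, adjusted P = 0.0535). The adjusted P there was 0.0222 without EE Sham replicate 2. With EE + SNA replicate 3 left out, the sample with the highest value, it was 0.157. The call of Vim in EE + SNA against SH Sham (adjusted P = 0.0313) was lost with limma on the FPKM (adjusted P = 0.0916), and also without EE + SNA replicate 1 or 3 or SH Sham replicate 1 or 3, where the adjusted P reached 0.120. Over both housings Vim rose by 23.8% (log2 fold change 0.31, standard error 0.060, adjusted P = 0.0012), and it passed with any 1 of the 12 samples left out (adjusted P of at most 0.00493). EE + SNA against SH Sham gave 0.27 (standard error 0.075, adjusted P = 0.0313), which was lost without SH Sham replicate 1 or 3 or EE + SNA replicate 1 or 3, with adjusted P of 0.0583 to 0.120. In injured ganglia EE + SNA differed from SH SNA by 0.020 (95% interval −0.14 to 0.18).

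Nestin, the least abundant of the 8, had 35.5, 37.4 and 34.4 CPM in SH Sham, 35.4, 33.5 and 45.7 CPM in SH SNA, 25.4, 42.5 and 33.0 CPM in EE Sham, and 33.0, 39.0 and 46.6 CPM in EE + SNA. The groups overlapped in every pair, and the spread within groups reached a coefficient of variation of 25.6% in EE Sham. Over both housings the log2 fold change was 0.16 (95% interval −0.063 to 0.39, adjusted P = 0.303). The samples high or low in Nes stood at the ends of the Schwann cell markers too. EE Sham replicate 1, lowest in Nes, had the lowest sum over the 9 Schwann cell markers (6634 CPM), and EE + SNA replicate 3 and SH SNA replicate 3, highest in Nes, had the highest sums (12404 and 11555 CPM). The part of the Schwann cell share in the Nes values was not tested.

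Gamma-synuclein did not pass the test in any comparison. It had 2071, 2074 and 2224 CPM in SH Sham, 2026, 2148 and 2125 CPM in SH SNA, 2066, 2200 and 2384 CPM in EE Sham, and 2118, 2158 and 2456 CPM in EE + SNA. All groups overlapped, and over both housings the log2 fold change was 0.00081 (95% interval −0.10 to 0.10, adjusted P = 0.994). Sncb, the gene of beta-synuclein, fell (log2 fold change −0.15, adjusted P = 0.0193).

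Other genes that build, tether and turn over these filaments were taken from lists written with earlier results of these data known, and are given for SNA against Sham over both housings. In that comparison 11.4% of all genes tested rose and 11% fell. Of 8 other cytoplasmic intermediate filament genes, 1 rose and 2 fell, with a median log2 fold change of −0.14. Gfap, the filament of reactive glia, rose (0.59, adjusted P = 0.00389), whereas Synm, the large synemin that joins vimentin filaments, fell (−0.20, adjusted P = 0.0032), as did Iffo1 (−0.14, adjusted P = 0.0328). Des, the desmin of muscle, had 1.30 (adjusted P = 0.113), and it is the muscle genes in which SH SNA replicate 2 stood apart. Lmna, which encodes the nuclear lamins A and C, rose (0.29, adjusted P = 0.000813) among 3 lamin genes. Of 11 keratin genes only 3 passed the filter on low counts, and 1 of them rose, Krt6a, at a mean level below 1 CPM.

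Among 7 tested linkers and chaperones of filaments, 2 rose and 1 fell, where 11.4% of all genes rose and 11% fell. The small heat shock protein gene Hspb1 rose (log2 fold change 0.69, adjusted P = 2.3e-08), as did Cryab, a related chaperone of desmin and vimentin (0.32, adjusted P = 0.00888), and the linker Evpl, at a mean of 1.14 CPM, fell (−0.83, adjusted P = 0.00651). Of 10 genes for kinases, phosphatases and turnover of neurofilaments, 1, not reported here by name, rose and 3 fell. Cdk5r1 and Cdk5r2, the activators of the neurofilament kinase Cdk5, fell (−0.52 and −0.23, adjusted P = 2.8e-06 and 0.00323), while Cdk5 itself had −0.053 (adjusted P = 0.399). The ubiquitin ligase Trim2, which binds the light subunit, fell as well (−0.22, adjusted P = 0.00752).

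Some microtubule genes of the axon rose while the neurofilament genes fell. Of 20 tested, 7 rose after adjustment, where 11.4% of all genes did. Among the 13 that did not pass, 2 had an unadjusted P below 0.05 with a lower level and 1 with a higher level. The largest rises of those named were of Stmn4, a stathmin that binds tubulin (log2 fold change 1.36, adjusted P = 9.4e-11), and of Tubb6, a beta-tubulin (1.09, adjusted P = 9.8e-11). Tubb2b and Map6, which stabilises microtubules, rose by 0.36 and 0.24 (adjusted P = 5.3e-05 and 0.00017). The median over the 20 genes was 0.054, beside 0.0071 over all genes tested. The abundant tubulins Tuba1a and Tubb3 had 0.10 and 0.046 (adjusted P = 0.0832 and 0.432). Neurofilament RNA relative to the summed RNA of these 20 genes was 0.730 ± 0.021 (SD, n = 3) in SH Sham, 0.598 ± 0.011 in SH SNA, 0.665 ± 0.020 in EE Sham and 0.595 ± 0.024 in EE + SNA, with no overlap between Sham and SNA in either housing.

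**Figure D4:**
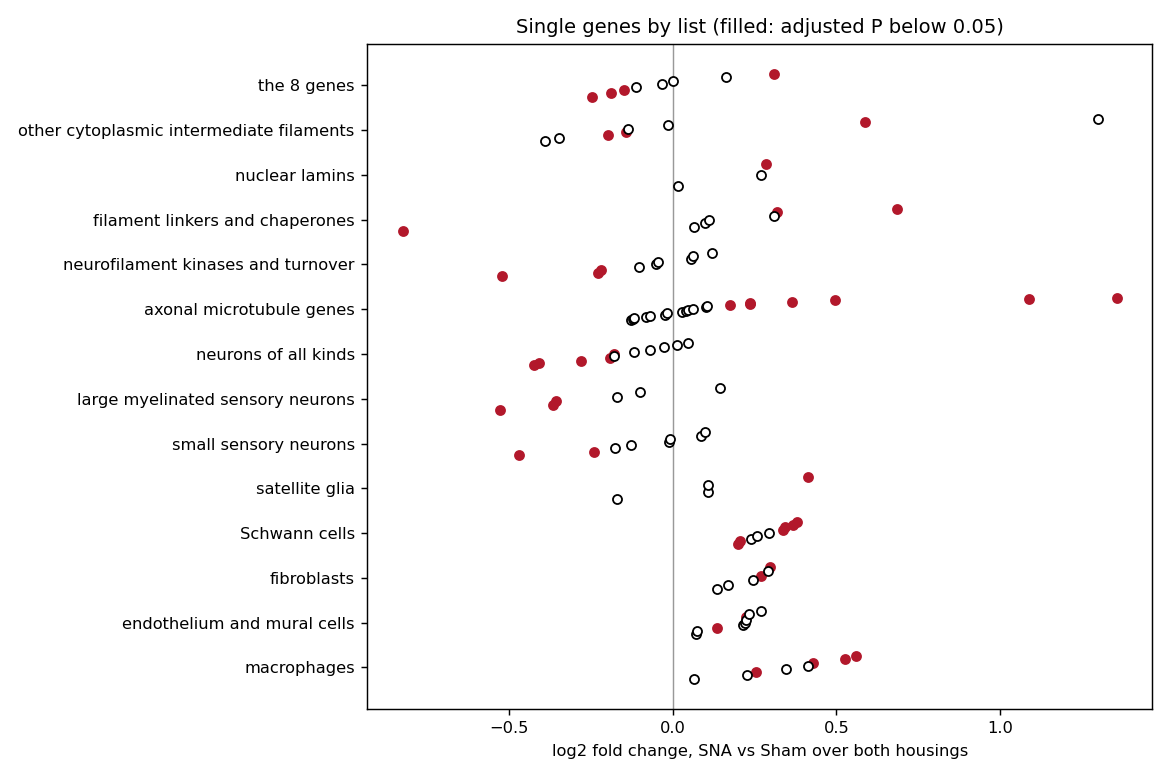
Log2 fold change of single genes, SNA against Sham over both housings (horizontal axis), in 14 lists (rows), with 1 point per gene reported here and filled points where the adjusted P is below 0.05. Neurofilament genes share the left side with markers of neurons, and Vim shares the right side with markers of Schwann cells, fibroblasts, vessels and macrophages.

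Markers of cell types are given beside the filament genes. Of 11 markers of neurons in general, 5 fell over both housings, where 11% of all genes did (median log2 fold change −0.18), among them the transcription factors Isl1 (−0.41) and Prdm12 (−0.43). Their summed level was 7054 to 7211 CPM in SH Sham, 6446 to 6705 in SH SNA, 6733 to 7146 in EE Sham and 6494 to 6804 in EE + SNA. The 3 neurofilament genes summed over those markers gave 1.77 to 1.95 in SH Sham and 1.70 to 1.73 in SH SNA, which did not overlap. In EE the ratio was 1.70 to 1.79 in EE Sham and 1.61 to 1.71 in EE + SNA, where the highest injured sample overlapped with the lowest control. Of 6 markers of large myelinated neurons 3 fell, with Etv1 at −0.53, and of 8 markers of small neurons 2 fell, with Mrgprd at −0.47. What part of the lower neurofilament counts goes with a lower share of neuronal RNA was not tested beyond these ratios.

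For Vim the comparison was with markers of satellite glia, Schwann cells, fibroblasts, vessels and macrophages. Which cells of the ganglion hold Vim RNA was not measured. Over both housings, where 11.4% of all genes rose, markers rose in 1 of 4 satellite glia genes (Glul, glutamine synthetase, 0.41), 6 of 9 Schwann cell genes, 2 of 6 fibroblast genes, 2 of 9 genes of vessels and 4 of 8 macrophage genes. None of these 36 genes was at 0 in any sample. The satellite glia sum was 705 to 770 CPM in SH Sham and 874 to 902 in SH SNA, 684 to 770 in EE Sham and 831 to 944 in EE + SNA. In both housings the satellite glia sums were higher in SNA without overlap. Glul, at a mean of 554 CPM, made up most of these sums. The other satellite glia genes did not pass, with Kcnj10 at 0.11, Slc1a3 at 0.11 and Fabp7 at −0.17 (adjusted P = 0.156, 0.386 and 0.246). The Schwann cell sum was 7450 to 9026 CPM in SH Sham, 7948 to 11555 in SH SNA, 6634 to 9215 in EE Sham and 9588 to 12404 in EE + SNA. Fibroblast markers summed to 674 to 769 CPM in SH Sham, 668 to 926 in SH SNA, 655 to 766 in EE Sham and 820 to 1036 in EE + SNA. The Schwann cell and fibroblast sums thus overlapped between Sham and SNA in SH but not in EE. Markers of vessels summed to 363 to 389 CPM in SH Sham, 399 to 427 in SH SNA, 369 to 403 in EE Sham and 430 to 460 in EE + SNA. The macrophage sum was 57.6 to 62.4 CPM in SH Sham, 66.9 to 94.9 in SH SNA, 54.0 to 62.5 in EE Sham and 67.3 to 93.1 in EE + SNA. Neither of these sums overlapped between Sham and SNA in either housing.

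Set against the sum of all 36 genes, Vim stood at 0.0502 to 0.0562 in SH Sham, 0.0466 to 0.0595 in SH SNA, 0.0493 to 0.0520 in EE Sham and 0.0476 to 0.0514 in EE + SNA. These 4 ranges overlapped, unlike Vim relative to the neuron markers, which was 0.0694 to 0.0807 in SH Sham, 0.0883 to 0.103 in SH SNA, 0.0610 to 0.0818 in EE Sham and 0.0898 to 0.104 in EE + SNA. Schwann cell genes made up most of the sum of 36 genes, so that the first ratio is chiefly Vim over those genes. In SH Sham replicate 1 they had 8111 CPM, beside 705 for satellite glia, 737 for fibroblasts, 363 for vessels and 57.6 for macrophages. Vim over the satellite glia markers alone overlapped in SH (0.710 to 0.739 and 0.678 to 0.733) and in EE (0.637 to 0.732 and 0.723 to 0.753). That ratio is chiefly Vim over Glul. Of the remaining lists, 1 of 4 neutrophil genes (Retnlg, 0.996) and 1 of 3 red blood cell genes (Alas2, 0.83) rose, where 11.4% of all genes did. Lists for sympathetic neurons (2 genes tested), skeletal muscle (6), epidermis (1) and dividing cells (4) had 0 genes past edgeR's adjusted test and 1, 5, 0 and 1 past the unadjusted test.

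**Figure D5:**
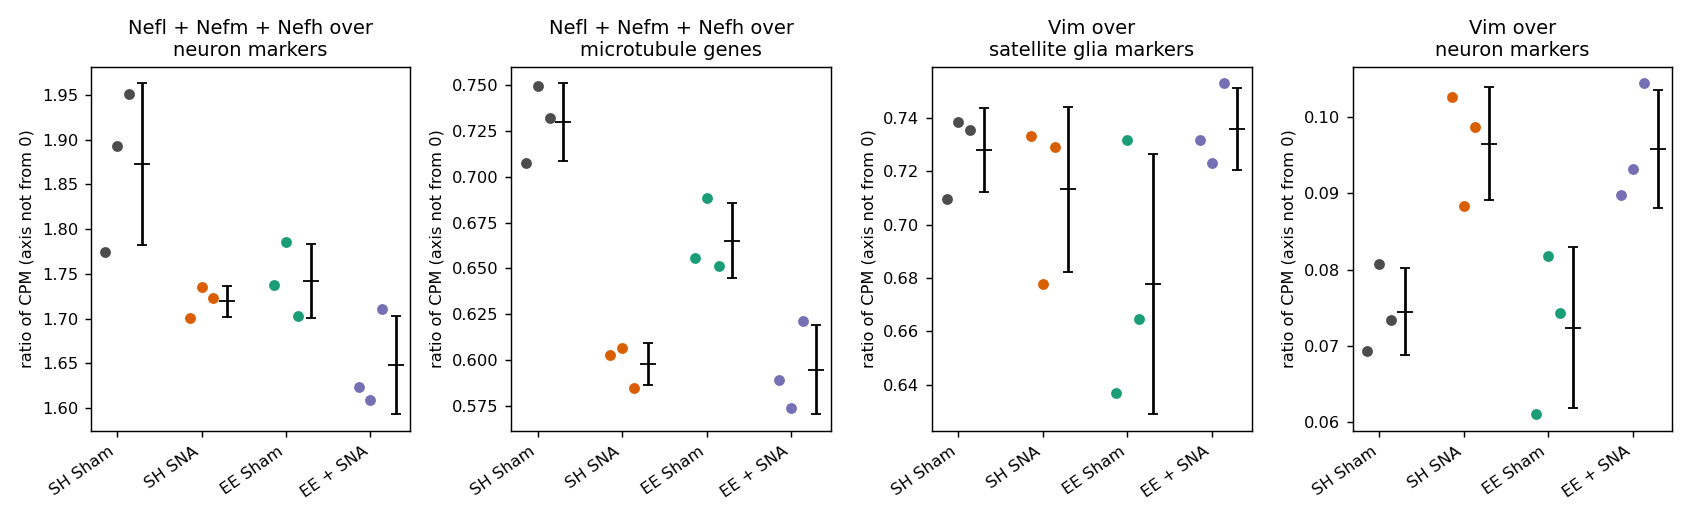
Ratios of CPM in the 12 samples (points, 3 per group, mean and SD as bars, axes that do not start at 0) for the 3 neurofilament genes over neuron markers and over microtubule genes, and for Vim over satellite glia markers and over neuron markers. Neurofilaments over microtubule genes are lower in every SNA sample than in any Sham sample, whereas Vim over satellite glia markers overlaps between the groups. Glul makes up most of the satellite glia sum.

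Across the 12 samples, which share the surgery groups and the libraries, the 3 neurofilament genes varied together, with Pearson r of log2 CPM of 0.86 to 0.93. Ina had r of 0.77 to 0.78 with them, Prph 0.24 to 0.41, Vim −0.59 to −0.52 and Sncg −0.10 to 0.18, and Vim and Nes had 0.74 with each other. Among 10230 genes of at least 10 CPM, those most like Nefl were Sil1 (r = 0.94), Nefm (0.93) and Cdk5r2 (0.92), and those most like Nefm were Sil1 (0.94), Nefl (0.93) and Abcg4 (0.92). Nefh was most like Hs3st2 (0.96), Asic1 (0.93) and Sv2a (0.93), and Ina most like Zswim1 (0.96), Fbxl18 (0.92) and Hsph1 (0.91). Prph was closest to Eef1a2 (0.88), Yipf3 (0.87) and Klc1 (0.86). Vim was closest to Syf2 (0.98), Tmbim6 (0.97) and Eif1 (0.96), and Nes to Fam178b (0.97), Sema3b (0.95) and Egfl8 (0.95). For Sncg the highest values were Surf2 (0.88), Ssrp1 (0.87) and Cox5b (0.86). These correlations rest on 12 samples and are descriptions of these libraries.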

How the data were processed

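TruSeq mRNA libraries were read from both ends on an Illumina HiSeq, and the authors aligned the reads to mm10. The submitters' processing notes name TopHat2 2.0.12, Bowtie2 2.2.3, SAMtools 0.1.19 and HTSeq 0.6.0. The deposited count table holds whole read counts per gene name, not normalized, and the deposited FPKM table holds FPKM that the authors computed from the same reads. HTSeq's 5 lines of reads that it did not assign to a gene, 56.3% to 56.8% of each column, were left out.

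In R 4.3.3, counts were filtered with filterByExpr (10 counts, total 15), scaled by TMM (factors 0.978 to 1.02) and tested with the two-sided quasi-likelihood F test of edgeR 4.0.16. Comparisons of 2 groups used their 6 samples, and SNA over both housings, housing and the interaction used all 12. P-values were called at 0.05 unadjusted, as in the study, and after Benjamini-Hochberg adjustment. CPM are counts over the TMM-scaled library total, multiplied by 1000000. P-values judge a difference against the spread between pools of 2 mice, so that differences between single mice are not seen. Replicates of a group differed by more than counting error, and the largest counting error of a member, that of Nes, was 5.97%. Scripts were tested on simulated data.

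The genes named are the 8 members, up to 4 genes of each list with the smallest P over both housings and a mean of at least 1 CPM, the 3 genes most like each member, and Atf3. Krt6a, Tuba1a, Tubb3 and Cdk5 were named after their values were seen. Some genes of the lists are not reported here. The members and lists were chosen with earlier results of these data known. Genes were placed on GRCm38 with GENCODE, and promoters came from RefSeq.

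The alternatives were DESeq2 1.42.0, scaling by library size, no filter, a filter of 10 counts in every sample, the likelihood ratio test, limma 3.58.1 on log2(FPKM + 1), the replicate number as a block, one fit of all samples, and each sample left out. For levels between genes, CPM per kilobase of annotated exon was the alternative to FPKM.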

Additional observations from a re-analysis of the deposited data

How the results depend on the processing

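The direction of Nefl, Nefm, Nefh and Vim between SNA and Sham was the same in all 248 values computed under alternatives (SH SNA and EE + SNA against SH Sham, EE + SNA against EE Sham, and both housings), while their calls moved. The number of the 8 genes called in SH SNA against SH Sham, 2, became 4 with DESeq2, 4 with the likelihood ratio test, 1 with limma on the FPKM, and 1 to 4 with a sample left out. In EE + SNA against EE Sham, 0 became 1 (Vim) with DESeq2, 1 with no filter, 1 with at least 10 counts in every sample, 1 with the likelihood ratio test and 1 with all 12 samples in one fit, and it was 0 to 1 with a sample left out. In EE + SNA against SH Sham, 4 became 1 with limma on the FPKM and 1 to 3 with a sample left out. The cause was not tested, except that leaving out a sample leaves fewer samples. SNA over both housings had 4 calls under every other setting and 3 to 5 with a sample left out.

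The numbers of the replicates do not pair the samples by the labels. Same-numbered samples of SH SNA and SH Sham had correlations of their deviations from the group mean of 0.246, −0.247 and −0.187. At least 1 pair was below 0.1 in every comparison. Between housings all same-numbered pairs were positive, at 0.337, 0.153 and 0.0793 in EE Sham against SH Sham. They were 0.0701, 0.103 and 0.126 in EE + SNA against SH SNA. Whether samples of the same number were handled together was not tested. With the replicate number as a block, 4 of the 8 genes were called in SH SNA against SH Sham (Nefl and Nefm added), 1 in EE + SNA against EE Sham (Vim, adjusted P = 0.0312), and Vim was no longer called in EE + SNA against SH Sham (adjusted P = 0.0536).

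Signs turned only for values that passed no test, the largest of which was the interaction for Nes, at 0.13. Prph in EE + SNA against EE Sham became 0.0012 with no filter and 0.0022 with all samples in one fit, and Sncg over both housings became −0.0024 with DESeq2, −0.011 with library size only, −0.0042 with no filter and −0.0099 with limma. With a sample left out, log2 fold changes ranged in EE + SNA against EE Sham from −0.030 to 0.027 for Prph and −0.056 to 0.060 for Sncg. In SH SNA against SH Sham they ranged from −0.055 to 0.18 for Nes and −0.039 to 0.017 for Sncg. In EE Sham against SH Sham they ranged from −0.29 to 0.086 for Nes and −0.17 to 0.0082 for Vim. In EE + SNA against SH SNA they ranged from −0.085 to 0.083 for Nefh, −0.061 to 0.0033 for Nefl, −0.077 to 0.20 for Nes, −0.013 to 0.11 for Prph and −0.060 to 0.060 for Vim. For housing over both surgeries they ranged from −0.094 to 0.062 for Nes, −0.020 to 0.034 for Prph and −0.076 to 0.011 for Vim. For the interaction they ranged from −0.025 to 0.076 for Ina, −0.042 to 0.34 for Nes and −0.039 to 0.089 for Sncg, and for Sncg over both housings from −0.034 to 0.023. The order of levels between genes was the same per kilobase of GENCODE exon, although Vim was then at 121 in place of 245. With 3 pools a group, changes under the sizes shown here could not be told from the spread between samples. Counting error, at most 1.44% in the other 6 genes, reached 4.56% for Ina and 5.97% for Nes, as much as the spread within some of their groups.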
